A study of Mus musculus with 10 samples.

Results

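Solute carriers (SLC) are membrane proteins that move nutrients, ions, metals and metabolites across the plasma membrane and the membranes of organelles. Their symbols carry a family number and a letter with a member number, and members of a family usually share a fold and a kind of substrate. Embryonic stem cells grow fast and are known for high glucose uptake and lactate export, for which glucose and monocarboxylate carriers are needed. The genes described here are coding transcripts with an SLC symbol in GENCODE M21, chosen by their mean normalised number of ribosome footprints on the open reading frame (ORF) in the control libraries, which had to be at least 100. This held for 140 of 285 listed SLC transcripts, and 8532 of 14534 listed coding transcripts passed the same cutoff. Because these footprints chose the genes, their control level is a description, and so is each change measured against it. Just above the cutoff were Slc35a2 (100.2), Slc43a3 (101.4) and Slc6a9 (102.3), and just below it Slc5a6 (97.2), Slc44a4 (94.2) and Slc8a2 (91.5). Among the 140 are 4 genes that are not transporters despite their symbols, namely Slc4a1ap, Slc7a6os and the scaffold proteins Slc9a3r1 and Slc9a3r2.

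All libraries came from the mouse embryonic stem cell line CGR8, of strain 129, grown without feeder cells in the presence of leukemia inhibitory factor. Ribosome profiling was done on control cells, on cells given 1 µM DMDA-PatA for 10 min, on cells given 2 µg/ml harringtonine for 10 min and on cells given 0.2 mg/ml puromycin for 20 min, with 2 libraries in each group, and 2 control libraries of the whole transcriptome were added. All groups got equal DMSO, and cycloheximide was present during extraction in all of them. DMDA-PatA, a pateamine A derivative, acts on the initiation helicase eIF4A, and puromycin releases the growing peptide. Harringtonine blocks elongation, and the study describes it as selective to a degree, though not specific, for sites of initiation. Doses, modes of action and, for puromycin, the time differed between drugs. The normalised values were whole multiples of 1 read, so the read numbers behind them were recovered. Control libraries held 9104220 and 10614247 reads on coding ORFs, and the 6 drug libraries held 618334 to 1944784. In the transcriptome libraries 5 of 6 stem cell markers examined lay above the 90th percentile of coding transcripts per kb, while Tdgf1 lay at the 64.9th. The collagen genes Col1a1 and Col1a2, listed as fibroblast markers, were at the 99.9th and 98.5th percentile, whereas Thy1 and the endoderm markers Gata4, Gata6 and Sox17 were at or below the 40.4th. The part that other cells might have in the values below was not tested, and in bulk libraries fewer cells of a type and less RNA per cell cannot be told apart.

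The glucose transporters Slc2a3 and Slc2a1 carried the most footprints per length in control cells, with 18524 and 18135 normalised footprints per kb of ORF. Slc2a3 (chr6:122727809-122742745, GRCm38, minus strand) had 29208 and 25585 normalised ORF footprints in the 2 control libraries, and Slc2a1 (chr4:119108711-119137983, plus strand) had 26414 and 27121. The next in order were the mitochondrial ADP/ATP carrier Slc25a4 with 8497 per kb, the mitochondrial phosphate carrier Slc25a3 with 7608 and the neutral amino acid carrier Slc38a2 with 7057. They were followed by Slc3a2, the shared heavy chain of several amino acid exchangers, with 5378, the amino acid carrier Slc38a4 with 4894 and the lactate exporter Slc16a3 with 4089. Slc25a4 and Slc25a3 were not separated by their replicates, since the control values were 8216 and 6976 for the first and 7833 and 8463 for the second on ORFs of 894 and 1071 nt. The median over the 140 genes was 217 footprints per kb, compared with 344 over all 8532 coding transcripts past the cutoff. Among classes formed by SLC family number, the amino acid carriers had the highest median, at 684 per kb for 24 genes. The sugar and monocarboxylate carriers, despite the 2 glucose transporters, had a median of 170 for 14 genes.

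**Figure D1:**
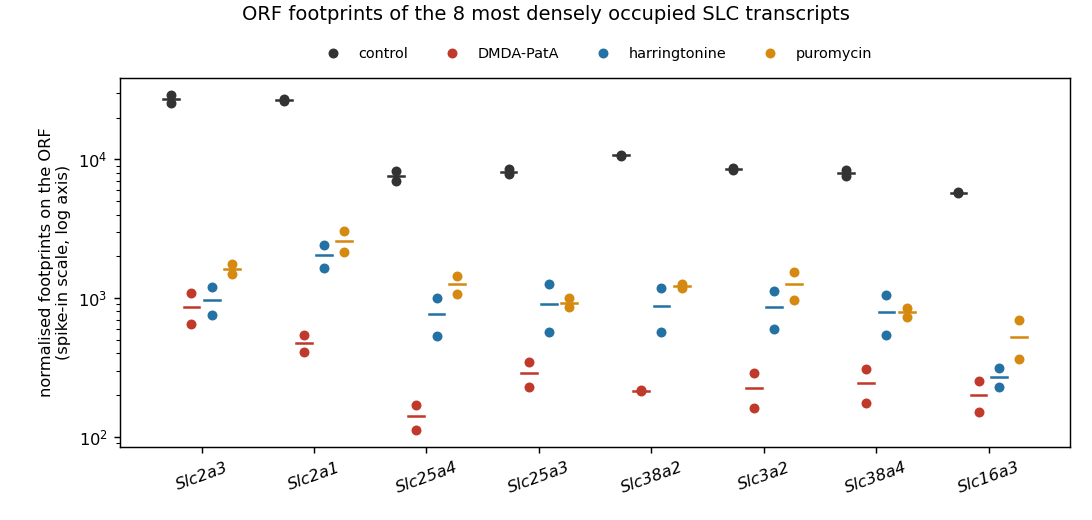
Normalised footprints on the ORF (spike-in scale, log axis) of the 8 SLC transcripts with the most control footprints per kb. Each dot is 1 library, short lines are the mean of 2 libraries, and for each of the 8 transcripts all 6 drug libraries lie below both control libraries.

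The translation efficiency (TE-score) sets the control ORF footprints against transcriptome ORF reads, with both scaled to the same sum over coding sequences. The median was 0.691 for the SLC genes, with 0.734 and 0.680 in the 2 same-numbered pairs of libraries (SD 0.0385, n = 2), and 1.02 for all coding transcripts past the cutoff. Mitochondrial carriers had a median of 1.07, and the carriers of nucleosides and nucleotide sugars had one of 0.53. The highest value was found for the ADP/ATP carrier Slc25a5, with 5.02 and 4.59 in the 2 pairs. It is uncertain, because reads with several matches were left out by the authors and Slc25a5 has close copies, among them Slc25a4. Next came Slc25a3 with 2.12 and 2.62, Slc38a2 with 2.18 and 2.21 and the carnitine carrier Slc25a20 with 2.28 and 1.96, whose ranges overlap. At the other end were the creatine transporter Slc6a8 with 0.238 and 0.214, the anion exchanger Slc4a2 with 0.251 and 0.243, Slc30a9 with 0.30 and 0.211 and Slc35c2 with 0.271 and 0.273. A low TE-score was not limited to rare transcripts, as the phosphate transporter Slc20a1 had 0.356 and 0.313 with 2822 and 2605 control footprints.

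Every SLC gene had fewer ORF footprints in both libraries of each drug than in either control library, as did 8530, 8350 and 8392 of the 8532 coding transcripts past the cutoff with DMDA-PatA, harringtonine and puromycin. DMDA-PatA had the strongest effect, with a median inhibition of 27 fold over the 140 genes (32.4 and 22.1 fold in the same-numbered pairs, SD 7.26, n = 2). Harringtonine gave 9.95 fold (7.99 and 14.8, SD 4.79) and puromycin 6.67 fold (7.49 and 6.08, SD 0.996). For all coding transcripts past the cutoff the medians were 22.4, 8.69 and 6.29 fold. In edgeR's quasi-likelihood test 140, 139 and 140 SLC genes were lower with DMDA-PatA, harringtonine and puromycin. The drugs lowered 99.8%, 93.9% and 91.1% of all 12298 coding transcripts tested, in the same order, so these counts say nothing particular about the SLC genes. The size of the decrease rests on the spike-in scale: with TMM normalization the median log2 change of all coding transcripts past the cutoff was -0.25 instead of -4.49 with DMDA-PatA. On that scale the SLC median was -0.51, and 55 genes were lower and 12 higher, or 39.3% and 8.57%, beside 23.5% and 18.6% of all transcripts tested. Of those past the cutoff 32.5% were lower and 19.2% higher. The 3 drugs were compared with the same 2 control libraries, so their changes are not independent.

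The largest ORF decreases with DMDA-PatA were seen in transcripts left with hardly any reads. Slc10a3 had 95.5 and 117 control footprints and 0.631 and 0 with DMDA-PatA, that is 1 read in both libraries together. Its exons are shared on the same strand with Ubl4a, so the reads of both genes could have been split or lost in counting. The zinc and manganese importer Slc39a8 went from 124 and 114 to 0 and 1.62, and the sodium/proton exchanger Slc9b1 from 215 and 168 to 0 and 3.25. The lactate and pyruvate carrier Slc16a1, the 4th, was well covered, with 4963 and 4791 footprints in control and 41 and 70.6 with DMDA-PatA. Its log2 change was -6.45 (SE 0.57). At the other end, the least reduced with DMDA-PatA were Slc7a6os at -2.60 (SE 0.45), the vesicular nucleotide carrier Slc17a9 at -2.72 (SE 0.46), Slc4a1ap at -2.77 (SE 0.46) and the glucose transporter Slc2a8 at -2.85 (SE 0.48). Slc7a6os and Slc4a1ap, which are not carriers, had 597 and 703 and 1037 and 878 control footprints, and their listed 5' UTRs were only 20 and 25 nt long. With TMM normalization all 4 of these changes were positive, at 1.65, 1.5, 1.47 and 1.4.

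With harringtonine, the leucine carrier Slc7a5 fell from 4664 and 4948 ORF footprints to 95.4 and 64.4, a log2 change of -5.92 (SE 0.55). The serine and alanine carrier Slc1a4 changed by -5.83 (SE 0.54), Slc39a8 by -5.52 (SE 0.61) and the peptide transporter Slc15a1 by -5.50 (SE 0.55). The smallest change was that of Slc25a5, from 486 and 476 to 367 and 232, at -0.69 (SE 0.42). It is the only one of the 140 genes that did not pass the test, and it passed when DMDA-PatA and harringtonine exchanged their size factors and without harringtonine replicate 1. The peroxisomal carrier Slc25a17 was at -1.02 (SE 0.43), and Slc2a8 and Slc17a9 were both at -1.43 (SE 0.44). Slc25a17 did not pass without control replicate 1, control replicate 2 or harringtonine replicate 2, and Slc2a8 did not pass without control replicate 1. Puromycin lowered Slc4a8 most, a bicarbonate transporter that went from 304 and 260 to 6.20 and 8.70, at -5.18 (SE 0.58). After it came Slc1a4 at -4.84 (SE 0.52), the sodium, potassium and chloride cotransporter Slc12a2 at -4.74 (SE 0.52) and Slc39a8 at -4.64 (SE 0.62). Among the genes least reduced with puromycin, the copper importer Slc31a1 was at -1.05 (SE 0.43), the glutamate transporter Slc1a3 at -1.32 (SE 0.46) and Slc16a13 at -1.46 (SE 0.44). Those of Slc31a1 and Slc1a3 were measured on listed ORFs of only 390 and 387 nt. Slc31a1 did not pass when either control library or either puromycin library was left out, and Slc1a3 did not pass without control replicate 1 or puromycin replicate 2.

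Sorted into classes by SLC family number, the mitochondrial carriers stood at the weak end for each drug. Class names are therefore loose. The amino acid class holds Slc7a6os, which is not a transporter, and the creatine transporter Slc6a8. The inorganic ion class holds Slc4a1ap, Slc9a3r1 and Slc9a3r2, which are not transporters, and the mitochondrial class holds the peroxisomal carrier Slc25a17. The median log2 ORF change of the 23 mitochondrial carriers was -4.09, -2.45 and -2.33 with DMDA-PatA, harringtonine and puromycin. The other 117 genes were at -4.87, -3.58 and -2.79. The 24 amino acid carriers were at -5.18, -3.99 and -2.88. The 14 sugar and monocarboxylate carriers were at -4.90, -3.8 and -3.06, and the 18 metal and heme carriers at -4.88, -3.48 and -2.87. For the 23 inorganic ion carriers the medians were -4.83, -3.10 and -2.78, for the 19 carriers of nucleosides and nucleotide sugars -4.49, -3.53 and -2.47, and for the 19 genes of other families -4.65, -3.58 and -2.79. The ORFs of the mitochondrial carriers were short, with a median of 948 nt against 1545 nt for the other 117 genes. Among all coding transcripts past the cutoff with ORFs up to 1000 nt, the medians were -4.09, -2.27 and -1.83, and above 2000 nt they were -4.74, -3.75 and -3.34. Of the 23 SLC genes with ORFs up to 1000 nt, 15 were mitochondrial carriers, and the part of ORF length in the class medians was not tested. The length of the 5' UTR went along with the ORF change as well, with DMDA-PatA medians of -4.06, -4.85 and -5.19 for the 37 genes with up to 100 nt, the 67 with up to 300 nt and the 36 with more. The corresponding medians were -2.91, -3.28 and -3.98 for harringtonine and -2.75, -2.68 and -2.77 for puromycin. All coding transcripts past the cutoff had the same order with DMDA-PatA, at -3.88, -4.67 and -4.96.

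**Figure D2:**
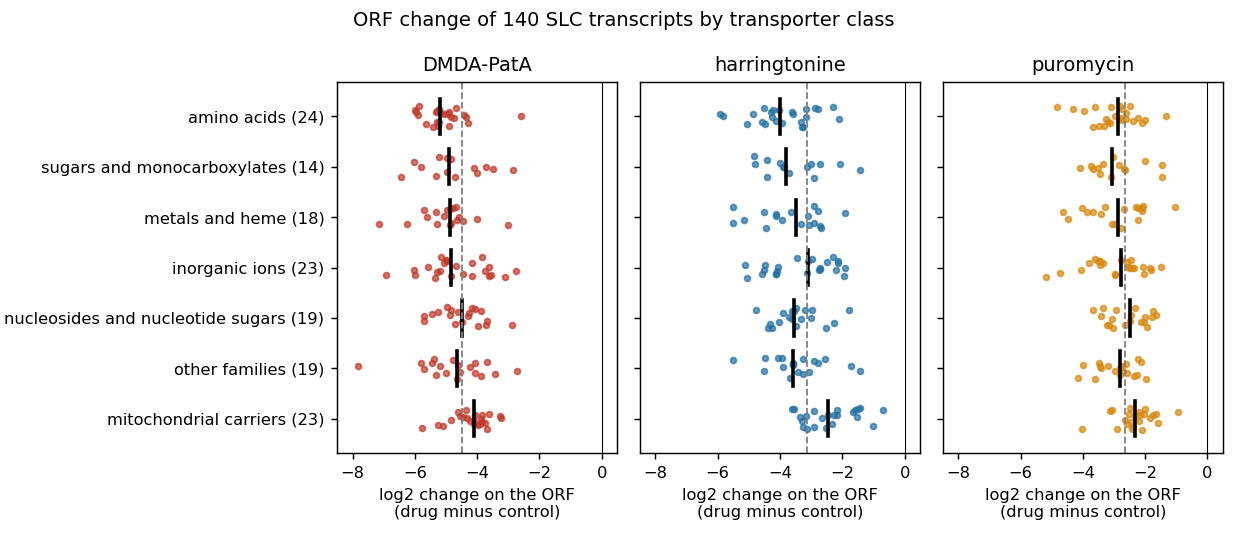
Log2 change of ORF footprints (drug minus control) for the 140 SLC transcripts, sorted by transporter class with the number of genes in brackets, for DMDA-PatA, harringtonine and puromycin. Dots are genes, black bars class medians and the dashed line the median of all 8532 coding transcripts past the cutoff; the mitochondrial carriers lie right of it for each drug, at -4.09, -2.45 and -2.33.

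The drugs were also compared with each other. These log2 differences do not use the control values that chose the genes. The control libraries did take part in the filter and in the estimate of the spread. DMDA-PatA left fewer ORF footprints than harringtonine on 79 of the 140 genes and more on none (edgeR, adjusted p up to 0.05). This is 56.4% of them, beside 53.0% of all transcripts tested and 59.8% of those past the same cutoff, and the median log2 difference of -1.35 was the same as for all coding transcripts past the cutoff. The count was 48 without harringtonine replicate 1 and 42 without DMDA-PatA replicate 1. With only the 4 libraries of DMDA-PatA and harringtonine in the fit, 130 of the genes were tested and 43 were lower. Against puromycin, DMDA-PatA was lower on 113 genes, or 80.7%, beside 67.9% of all transcripts and 74.9% of those past the cutoff, with a median of -1.88 against -1.77. Slc16a1 showed both differences clearly, with 41 and 70.6 footprints under DMDA-PatA, 408 and 243 under harringtonine and 523 and 852 under puromycin (adjusted p = 1.58e-06 and 1.50e-11 in edgeR). For Slc31a1 the values were 6.31 and 8.12, 125 and 64.4, and 153 and 189, and DMDA-PatA was 3.69 (adjusted p = 2.21e-10 in edgeR) and 4.56 log2 units lower (adjusted p = 3.35e-15). In contrast, Slc2a3 had 654 and 1080 ORF footprints in the DMDA-PatA libraries, 1195 and 749 in the harringtonine libraries and 1481 and 1758 with puromycin. Its differences of -0.16 and -0.90 did not pass (adjusted p = 0.772 and 0.0740 in edgeR). With TMM normalization the counts were 20 lower and 26 higher for DMDA-PatA against harringtonine and 29 lower and 21 higher against puromycin, so they too rest on the spike-in scale.

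Harringtonine and puromycin differed less. Harringtonine was lower on 18 of the 140 genes, or 12.9%, beside 10.1% of all transcripts and 11.5% of those past the cutoff, and higher on 2, or 1.43%, beside 1.10% and 1.22%. The count of 18 became 72 when DMDA-PatA and harringtonine exchanged their size factors, 59 without harringtonine replicate 1, 11 without either control library, 7 without puromycin replicate 1 and 2 without puromycin replicate 2. Among the 18 were Slc7a5 at -1.96 (adjusted p = 0.00154 in edgeR), the glutamine carrier Slc1a5 at -1.59 (adjusted p = 0.0109), the zinc exporter Slc30a1 at -2.21 (adjusted p = 0.000414) and the nucleoside transporter Slc29a1 at -1.61 (adjusted p = 0.0106). Slc30a1 had 22.3 and 19.6 ORF footprints with harringtonine and 80.6 and 112 with puromycin, without overlap. Both genes that were higher with harringtonine are mitochondrial carriers, and they are named here after their values were seen. Slc25a5 was 1.33 higher (adjusted p = 0.0295 in edgeR) and Slc25a33, a pyrimidine nucleotide carrier, 1.55 higher (adjusted p = 0.0318), but neither was called with the replicate block or with only the 4 libraries of both drugs in the fit. Without harringtonine replicate 2 this count was 7, without harringtonine replicate 1 it was 1, and without a control or puromycin library it was 0.

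Footprints on the 5' UTR did not choose the genes and behaved differently from those on the ORF. In control libraries 7.33% ± 0.555 (SD, n = 2) of the SLC reads on 5' UTR and ORF were on the 5' UTR, compared with 3.84% ± 0.183 for all coding transcripts past the cutoff. The transcriptome libraries gave 7.15% ± 0.312 and 3.78% ± 0.156. DMDA-PatA brought the share to 52.3% ± 1.03 for the SLC genes and 37.6% ± 0.222 for all. In harringtonine libraries it was 47.9% ± 2.49 and 30.0% ± 2.65, and in puromycin libraries 30.7% ± 2.86 and 18.1% ± 1.81. The 5' UTR share of the SLC genes was thus above that of all coding transcripts in all of the 10 libraries. These are sums, to which Slc2a1 and Slc2a3 add many reads. Their own shares in control, 4.74% and 5.84%, were below the SLC sum, and with DMDA-PatA, at 74.8% and 56.4%, above it. With harringtonine and puromycin Slc2a1 was below the sum, at 39.5% and 22.2%, and Slc2a3 above it, at 73.6% and 40.1%. The median over single SLC genes was 2.88% in control and 36.3%, 30.4% and 14.5% with DMDA-PatA, harringtonine and puromycin. In control cells 3 of the 140 genes had more footprints on the 5' UTR than on the ORF, namely Slc35e4 with 65.6%, the GDP-fucose carrier Slc35c1 with 54.6% and the zinc carrier Slc39a9 with 52.6%. There were 52, 46 and 28 such genes under DMDA-PatA, harringtonine and puromycin. These medians and counts describe the SLC genes alone, and the summed share of all coding transcripts past the cutoff rose with each drug as well.

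**Figure D3:**
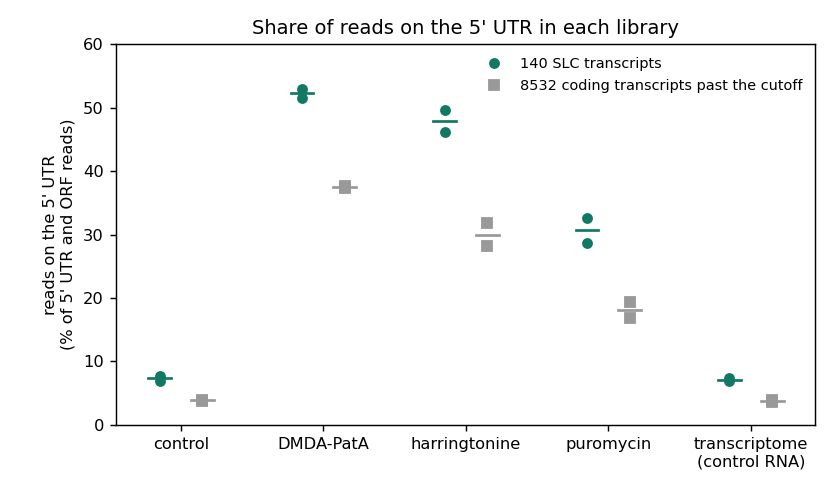
Reads on the 5' UTR as a percentage of all reads on 5' UTR and ORF in each library, summed over the 140 SLC transcripts (circles) or the 8532 coding transcripts past the cutoff (squares). Lines are the mean of 2 libraries, and the SLC share lies between 6.94 and 7.72% in control and between 51.6 and 53.0% with DMDA-PatA.

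At least 10 reads on the 5' UTR in 2 libraries were present for 94 of the 140 genes, and counts and medians on the 5' UTR describe those 94 alone. With DMDA-PatA 45 of them had fewer 5' UTR footprints and 10 had more (edgeR, adjusted p up to 0.05), which is 47.9% and 10.6% beside 29% and 14.7% of the 6647 transcripts tested. The median log2 change was -1.29, compared with -0.33 for all tested coding transcripts past the cutoff. By class, 9 of 19 amino acid carriers tested fell and 2 rose, as did 7 and 2 of 14 inorganic ion carriers and 6 and 1 of 13 carriers of nucleosides and nucleotide sugars. Among metal and heme carriers 7 of 14 fell, among sugar and monocarboxylate carriers 6 of 10 and among the other families 8 of 10, and none of them rose. Without control replicate 1, control replicate 2 or DMDA-PatA replicate 2 the number that rose was 3, 5 or 4. Harringtonine lowered 11 and raised 17, or 11.7% and 18.1%, beside 5.21% and 35.1% of all. Of the 17 raised genes 9 had under 10 reads in both control libraries and so were tested only because drug libraries held reads. Its median was 0.21 against 0.97, but the SLC median was -0.55 with TMM normalization and -0.06 with the size factors exchanged, so no direction was established. Without a control library the number lowered was 6, and without harringtonine replicate 1 or 2 it was 6 or 5; without control replicate 2 the number raised was 10. Puromycin gave 0 lower and 0 higher in edgeR, beside 0.406% and 0.557% of all, with 16 lower and 3 higher at an unadjusted p below 0.05 and 1 lower and 0 higher in DESeq2. In each of these comparisons the ORF fell more than the 5' UTR: the change of the 5' UTR relative to the ORF was called higher for 89, 92 and 83 of the 94 genes with DMDA-PatA, harringtonine and puromycin. The same was true of 93.6%, 95.4% and 78.3% of the 6497 transcripts tested. These ratios also use the control ORF values, and the SLC medians of 3.57, 3.8 and 2.47 log2 units were below those of all coding transcripts past the cutoff, at 4.59, 4.16 and 2.69.

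**Figure D4:**
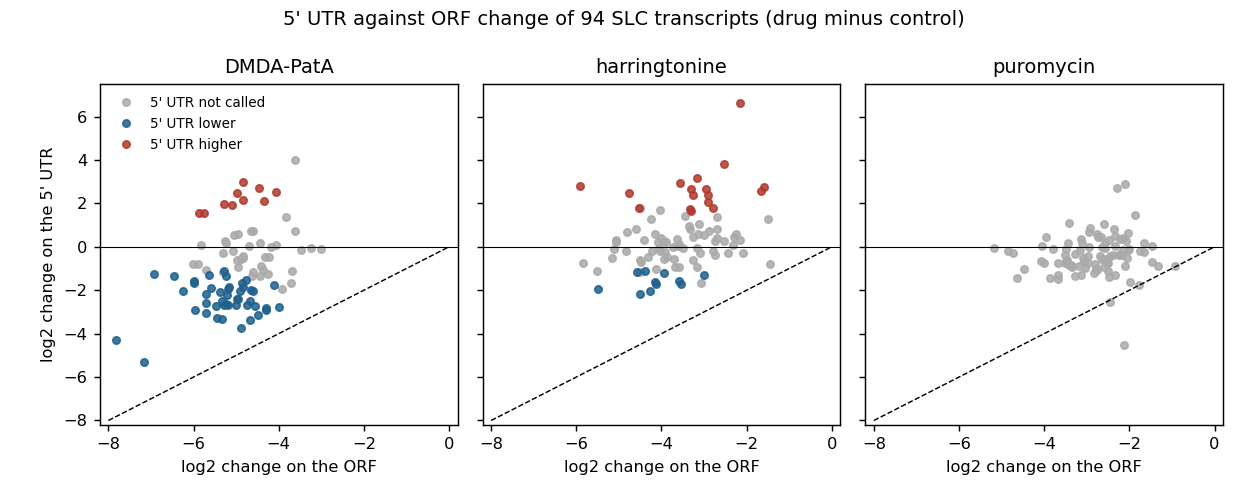
Log2 change on the 5' UTR (vertical) against log2 change on the ORF (horizontal), drug minus control, for the 94 SLC transcripts with enough 5' UTR reads. Colours give the edgeR call on the 5' UTR, the dashed diagonal marks equal change, and 45 transcripts are lower and 10 higher with DMDA-PatA; the highest point with harringtonine is Slc12a7, whose fitted value rests on 0 control reads.

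The 5' UTRs that lost footprints with DMDA-PatA often held an upstream AUG. Sequences were taken from GENCODE M21 and used for the 113 SLC transcripts in which the listed ORF starts with AUG and is followed by a stop codon. An ATG on the transcript strand was present in the 5' UTR of 63 of these, or 55.8%, and in 48.3% of 6535 coding transcripts past the cutoff. Among the 94 SLC genes tested on the 5' UTR, 76 had a checked sequence, and 52 of these, or 68.4%, held an upstream AUG. Of the 45 genes lowered by DMDA-PatA 36 had a checked sequence, and 31 of these, or 86.1%, held an upstream AUG. Of the 10 genes that rose, 9 had a checked sequence and 3 held one, and of the 31 checked genes without a call 18 did. Among all coding transcripts past the cutoff the shares were 83.7% for lowered, 26.5% for raised and 54.9% for uncalled 5' UTRs. The 5' UTRs were also longer in the lowered group, with a median of 343 nt compared with 135 nt in the raised one, and the part of length in these shares was not tested. The median control level was 90.2 normalised footprints in the lowered group and 5.53 in the raised one, in which 6 of 10 genes had under 10 reads in both control libraries. This difference follows from the calls, since only a 5' UTR with control reads can be called lower.

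The first upstream AUG of 3 of the transcripts whose 5' UTR fell most, and start sites of 3 of the 4 that rose most, are shown with up to 9 nt on either side in DNA letters, as these are the transcripts at both ends of the 5' UTR response. Capitals mark the ATG. Slc4a7 had no checked sequence.
Slc39a8, 1st of 4 upstream AUGs, chr3:135825370-135825390, plus strand: tttgagacaATGcaaggggct
Slc10a3, its 1 upstream AUG, chrX:74370952-74370972, minus strand: gaccttcccATGgacccttct
Slc30a5, 1st of 3 upstream AUGs, chr13:100833411-100833427, minus strand: ggcggATGacgtggccc
Slc25a3, its 1 upstream AUG, chr10:91123768-91123788, minus strand: gagccgggcATGtctcgcggg
Slc25a1, ORF start, chr16:17928068-17928088, minus strand: ctgcccgctATGgctgcgcct
Slc35f6, ORF start, chr5:30648013-30648033, plus strand: tccaccactATGgcctggact
Positions are those of GRCm38. All upstream frames of these 3 lowered transcripts stop before the ORF starts, and those shown run over 11, 16 and 38 codons in the order above. In Slc25a3 the upstream frame of 30 codons overlaps the ORF start in another frame, whereas Slc25a1 and Slc35f6 have no upstream AUG.

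Slc39a8 had 74.3 and 102 footprints on its 5' UTR in control, 1.89 and 2.44 in the DMDA-PatA libraries, 34.5 and 46.2 in the harringtonine libraries and 51.7 and 16.2 with puromycin. The DMDA-PatA values were far below all others, and the log2 change was -5.30 (SE 0.67, adjusted p = 5.67e-13 in edgeR). The zinc carrier Slc30a5 of the secretory pathway had almost as many control footprints on its 5' UTR, 455 and 579, as on its ORF, 607 and 567. With DMDA-PatA its 5' UTR held 40.4 and 37.3, a change of -3.73 (SE 0.50, adjusted p = 5.23e-12), while with puromycin it held 364 and 395, a difference from control that did not pass (adjusted p = 0.782). For Slc10a3, which shares exons with Ubl4a, the change from 14.1 and 18.1 to 0 and 1.62 rests on few reads (-4.28, SE 0.93, adjusted p = 3.92e-05). The glutamine carrier Slc38a1 fell from 885 and 1093 to 119 and 144 under DMDA-PatA and to 286 and 196 under harringtonine (adjusted p = 1.66e-08 and 6.91e-05 in edgeR).

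Several mitochondrial carriers behaved in the opposite way. Slc25a3 had 16.5 and 13.6 footprints on the 5' UTR in control, 99.1 and 142 in the DMDA-PatA libraries, 146 and 122 in the harringtonine libraries and 22.7 and 16.2 with puromycin. It rose by 3.0 (SE 0.53, adjusted p = 4.62e-07 in edgeR) and 3.15 (SE 0.54, adjusted p = 1.86e-07) with the first 2 drugs, whereas the difference with puromycin, 0.35, was not detectable (adjusted p = 0.901). Meanwhile its ORF changed by -4.83 (SE 0.53) with DMDA-PatA. The citrate carrier Slc25a1 rose from 1.18 and 7.25 to 17.0 and 43.8 under DMDA-PatA and to 32.5 and 37.8 under harringtonine (adjusted p = 0.000300 and 0.000103 in edgeR), but without control replicate 1 the DMDA-PatA call was lost (adjusted p = 0.0518). Slc25a4 rose from 62.5 and 58.9 to 110 and 250 (adjusted p = 0.00330 in edgeR) and to 404 and 367 (adjusted p = 8.4e-07). Of the 14 mitochondrial carriers tested on the 5' UTR, 5 rose and 2 fell with DMDA-PatA and 7 rose and 0 fell with harringtonine. Of the other 80 genes, 5 rose and 43 fell with DMDA-PatA, and 10 rose and 11 fell with harringtonine. The counts of raised genes are a description. Over both sets, 6 of the 10 raised with DMDA-PatA had under 10 reads in both control libraries. The same held for 9 of the 17 raised with harringtonine. Such genes, Slc25a1 among them, were tested only because drug libraries held reads. Among all tested coding transcripts past the cutoff, 16.6% rose and 27.2% fell with DMDA-PatA, and 38.3% rose and 4.67% fell with harringtonine. With DMDA-PatA their median log2 change was 1.48, -0.05 and -1.25 for 5' UTRs of up to 100 nt, up to 300 nt and more. With harringtonine it was 1.75, 1.21 and 0.26. The median 5' UTR was 140 nt for the 23 mitochondrial carriers and 204 nt for the other 117 genes. The part of length in these counts was not tested. The other large increases with DMDA-PatA were those of Slc35f6, at 2.51 (SE 0.89, adjusted p = 0.0147), and of the bicarbonate transporter Slc4a7, at 2.48 (SE 0.71, adjusted p = 0.00225). Like Slc25a1, which had under 10 reads in both control libraries, Slc35f6 was tested only because drug libraries held reads. Slc35f6 had 2.36 and 1.81 control footprints, and it was not called in DESeq2 (adjusted p = 0.066) or without control replicate 1, control replicate 2 or DMDA-PatA replicate 2 (adjusted p = 0.0659, 0.119 and 0.0536 in edgeR). Slc4a7 was not called without control replicate 2 (adjusted p = 0.0568).

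**Figure D5:**
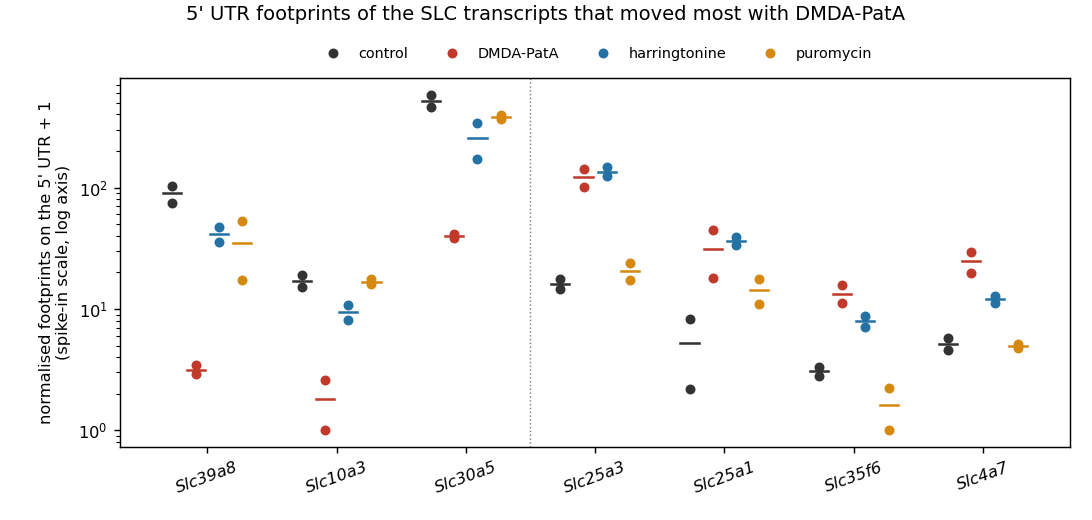
Normalised footprints on the 5' UTR plus 1 (spike-in scale, log axis) for 3 of the 4 SLC transcripts with the largest called decrease with DMDA-PatA, left of the dotted line, and the 4 with the largest called increase, right of it. Each dot is 1 library and short lines are means of 2 libraries; the 2 DMDA-PatA libraries lie below all others for Slc30a5, at 40.4 and 37.3, and above control for Slc25a3, at 99.1 and 142.

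The potassium and chloride cotransporter Slc12a7 had 0 and 0 footprints on the 5' UTR in control and 15.2 and 8.4 with harringtonine, at least 7.55-fold higher when 3 reads over both control libraries are taken as the limit. It passed the filter through the harringtonine libraries alone, with 15 and 12 reads, so its call is fixed by the filter and is given as a description. Slc25a39, a mitochondrial glutathione carrier, rose from 2.36 and 0.906 to 32.5 and 14.7, at 3.8 (SE 0.87, adjusted p = 0.000115 in edgeR). It had under 10 reads in both control libraries and was tested only because drug libraries held reads, so this rise too is a description. Decreases with harringtonine were largest for the lysosomal amino acid carrier Slc36a1, at -2.18 (SE 0.57, adjusted p = 0.000927), Slc38a1 at -2.04 (SE 0.45), Slc39a9 at -1.97 (SE 0.48, adjusted p = 0.000312) and Slc35c1 at -1.72 (SE 0.48, adjusted p = 0.00185). The call for Slc36a1 was lost without harringtonine replicate 1 (adjusted p = 0.0875). Slc39a9 overlaps exons of Erh on the other strand. On Slc29a1, whose listed 5' UTR is 55 nt long, the drugs acted in opposite directions. It had 36.5 and 34.4 footprints on the 5' UTR in control, 5.05 and 3.25 in the DMDA-PatA libraries and 270 and 124 in the harringtonine libraries, or -3.04 (SE 0.62, adjusted p = 9.99e-06) and 2.46 (SE 0.50, adjusted p = 1.30e-05). Puromycin left it at 39.3 and 26.1 (adjusted p = 0.956). The glucose transporters showed little change on the 5' UTR with DMDA-PatA: Slc2a1 had 1310 and 1352 footprints there in control and 1253 and 1569 with the drug, a difference of 0.08 (SE 0.43, adjusted p = 0.894), and Slc2a3 had 1639 and 1758 and then 1009 and 1239, a difference of -0.60 (SE 0.43, adjusted p = 0.255).

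The remaining genes named by symbol also lost ORF footprints with DMDA-PatA. Slc3a2 went from 8647 and 8326 footprints to 162 and 287 with DMDA-PatA, Slc38a2 from 10623 and 10718 to 216 and 213, and the arginine carrier Slc7a1 from 1716 and 1619 to 21.5 and 30.8. Slc20a1, with 59.3 and 89.3 left, also fell on the 5' UTR, from 1123 and 1230 to 127 and 245 (-2.66, SE 0.46, adjusted p = 1.74e-07 in edgeR), and so did Slc1a5, from 177 and 195 to 35.4 and 45.5 (-2.20, SE 0.48, adjusted p = 3.89e-05). For Slc3a2 the 5' UTR rose with harringtonine, from 138 and 186 to 586 and 422 (1.64, SE 0.45, adjusted p = 0.00161), but not detectably with DMDA-PatA (0.17, adjusted p = 0.782). The zinc importer Slc39a10 had 110 and 120 footprints on the 5' UTR in control and 60.6 and 98.2 with DMDA-PatA (-0.53, adjusted p = 0.354). Slc19a1, the folate carrier, went from 71.9 and 19.9 to 5.68 and 10.6 (-2.49, SE 0.58, adjusted p = 0.000137).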

How the data were processed

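Reads were aligned by the authors to mm10 (GRCm38), without those that matched several places, and counted in each region. Ribosome profiling values were scaled by spike-in reads and transcriptome values by size factors between replicates, so the deposited signal values are reads times a size factor. In all columns 100.0% of values were whole multiples of 1 read (tolerance 0.05). Coding transcripts were named with GENCODE M21, and 131 of 14534 had no match. Recovered reads were tested in edgeR 4.0.16 (quasi-likelihood test, R 4.3.3) over the 8 ribosome profiling libraries, with the authors' size factors as offsets, at least 10 reads in 2 libraries, and Benjamini-Hochberg adjustment over all transcripts tested. The tests had been planned for counts and were therefore run on the recovered reads. Log2 changes are drug minus control, and the SE is the log2 change over the root of F. DESeq2 1.42.0, TMM, exchanged size factors, a replicate block, other cutoffs and left-out libraries served as alternatives, the exchange because a transcript table of the study uses the factors of DMDA-PatA and harringtonine the other way round than the deposited values, which was not settled, and the fits were tested on simulated data. The study calls replicates biological, and p-values measure only the spread between these libraries.

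Genes and lists were chosen with earlier results of these data known. Named genes are the 4 largest and 4 smallest ORF decreases for each drug, of equal sign in both pairs, the 4 largest called 5' UTR changes each way per drug, the 8 highest footprint densities, the 4 highest and lowest TE-scores, the cutoff neighbours and 19 genes by symbol. Of these, 2 are not reported here.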

Additional observations from a re-analysis of the deposited data

How the results depend on the processing

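The spike-in factors were replaced by TMM normalization. Against control, TMM gave 55, 65 and 49 SLC genes lower and 12, 23 and 13 higher with DMDA-PatA, harringtonine and puromycin. Of all transcripts tested 23.5%, 29.9% and 24.9% were lower and 18.6%, 26.3% and 24.1% higher, in the same order. It gave 20 lower and 26 higher for DMDA-PatA against harringtonine, 29 and 21 for DMDA-PatA against puromycin, and 16 higher for harringtonine against puromycin. More genes, 25, were lower with harringtonine than with puromycin under TMM. On the 5' UTR TMM lowered 36 and raised 13 of the 94 genes with harringtonine, beside 1242 and 1411 of the 6647 transcripts tested. With puromycin it lowered 8 and raised 0, beside 156 and 127. It turned the ORF changes positive for Slc7a6os (1.65), Slc17a9 (1.5), Slc4a1ap (1.47), Slc2a8 (1.4) and Slc25a5 (0.31) with DMDA-PatA, for Slc25a5 (2.19), Slc25a17 (1.82), Slc2a8 (1.42) and Slc17a9 (1.41) with harringtonine, and for Slc31a1 (1.43), Slc1a3 (1.1), Slc16a13 (1.0) and Slc25a5 (0.46) with puromycin. Scaling to equal total reads on coding sequences gave median inhibitions of 1.29, 1.56 and 1.23 fold. When DMDA-PatA and harringtonine exchanged their size factors, the median inhibitions were 22.6 and 12.4 fold, harringtonine was lower than puromycin on 72 genes, DMDA-PatA was higher than harringtonine on 3, and 17 and 3 genes were lower on the 5' UTR with harringtonine and puromycin.

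With only the 4 libraries of both groups the counts were 43 for DMDA-PatA lower than harringtonine, 10 lower and 0 higher for harringtonine against puromycin, and 7 lower on the 5' UTR with puromycin. DESeq2 gave 1 higher for harringtonine against puromycin and 1 lower on the 5' UTR with puromycin. Without a filter, and at a member cutoff of 200, 7 genes were lower on the 5' UTR with harringtonine, and at that cutoff 1 was higher for harringtonine against puromycin. Choosing the genes by a transcriptome value of at least 100 gave 200 genes and a median TE-score of 0.613.

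Replicate differences correlated at 0.091 to 0.104 among control, DMDA-PatA and harringtonine over 8532 transcripts. Between puromycin and the other groups the correlations were -0.019 to -0.002. Whether same-numbered libraries share more than a number was not settled. With the replicate block, 6 genes were lower on the 5' UTR with harringtonine, 0 were higher for harringtonine against puromycin, and 140 were lower on the ORF with DMDA-PatA.

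Leaving out 1 library at a time, the ORF counts against control were 138 to 140 lower with DMDA-PatA, 135 to 140 with harringtonine and 135 to 140 with puromycin. For DMDA-PatA against harringtonine they were 42 to 103, for DMDA-PatA against puromycin 77 to 119, and for harringtonine against puromycin 2 to 59 lower and 0 to 7 higher. On the 5' UTR they were 33 to 50 lower and 3 to 10 higher with DMDA-PatA, 5 to 15 lower and 10 to 20 higher with harringtonine, and 0 to 2 lower and 0 to 1 higher with puromycin. Median inhibition was 22.1 to 32.4 fold, 7.99 to 14.8 fold and 6.08 to 7.49 fold, and the TE-score 0.680 to 0.734. The 5' UTR change relative to the ORF was called for 80 to 89, 83 to 92 and 70 to 82 genes. Where counts moved, the cause was not tested.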

Other observations

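Of the 145 SLC transcripts below the cutoff, 5 had at least 10 footprints on the 5' UTR in the control mean and more there than on the ORF. The clearest was Slc35a4, a gene of the nucleotide sugar carrier family with a 5' UTR of 722 nt, which is known to hold a translated frame upstream of the carrier's ORF. Control libraries held 47.2 and 54.4 normalised footprints on its 5' UTR, 7.07 and 1.81 on its ORF, and 193 and 201 normalised transcriptome reads on the ORF. Its 5' UTR footprints fell with DMDA-PatA to 6.31 and 11.4 (log2 change -2.53, SE 0.58, adjusted p = 0.000114 in edgeR) and with harringtonine to 10.1 and 7.70 (-2.51, SE 0.59, adjusted p = 0.000208). With puromycin they were 10.3 and 23.6 (-1.51, adjusted p = 0.234). Slc25a44 had 165 footprints on the 5' UTR in the control mean and 70.7 on its listed ORF. The cystine carrier Slc7a11, also below the cutoff, had 18.9 and 11.8 footprints on the ORF in control and 0 and 0 with DMDA-PatA.

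The 44 transporters outside the SLC scheme that passed the cutoff, among them ABC transporters and ion pumps, were all lower on the ORF with each drug, with median inhibitions of 24.9, 11 and 9.14 fold for DMDA-PatA, harringtonine and puromycin. On the 5' UTR 31 were tested, and 11 fell and 2 rose with DMDA-PatA. On the 3' UTR 22 SLC genes had enough reads, of which 6, 3 and 3 were lower with DMDA-PatA, harringtonine and puromycin and none higher. This is 27.3%, 13.6% and 13.6%, beside 35.1%, 21.6% and 16.7% lower and 0.153%, 8.21% and 1.84% higher among the 1303 transcripts tested.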
